A study of Mus musculus with 12 samples.

Results

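The cytosolic ribosomal protein genes were followed in mouse liver, in 6 mice given a selenium-enriched fungus and 6 control mice. Members were chosen by name alone. They were the rows of the deposited expression table whose symbol begins with Rpl or Rps and a number, or is Rpsa, Rplp0, Rplp1 or Rplp2, without the S6 kinases and without rows named as pseudogenes, and with a mean TPM of at least 1 over the 12 libraries. TPM is a transcript abundance, corrected for transcript length and scaled to a fixed total per library. The name rule found 94 of 57010 rows and the level threshold kept 87, of which 37 carry a small subunit name and 50 a large subunit name. The 7 rows that missed the threshold, Rps23rg1, Rpl3l, Rpl39l, Rps3a3, Rpl6l, Rpl10l and Rpl32l, had means from 0 to 0.609 TPM, and the nearest rows inside it were Rpl12 at 5.85, Rps2 at 5.93 and Rps4l at 6.11 TPM. The rule also holds Rps19bp1, which encodes a binding protein of ribosomal protein S19 and not a ribosomal protein, and Rpl7l1, whose product acts in ribosome assembly. It misses proteins of the ribosome that have other names, such as Fau and Rack1.

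The selenium mice were wild-type C57BL/6J males given Aspergillus oryzae A02, a food fungus grown with selenium, by daily gavage in saline at 0.5 mg selenium per kg. The control mice were wild-type C57BL/6J males of the same age, labelled as untreated, and whether they were given saline is not stated. All mice were 6 weeks old at the start after 7 days of acclimatization and ate a normal diet. The protocol speaks of 10 mice per group, and libraries of 6 are analysed here. On duration the sources differ, with 8 weeks in the series' design and 14 weeks in the descriptions of the samples. No mice had the fungus without selenium, so what each did cannot be told apart. The labels name both liver and hepatocytes. All 9 matched hepatocyte markers passed the filter and summed to 33543 to 50677 TPM in selenium libraries and 31186 to 51366 TPM in control libraries, and markers of macrophages, endothelium and stellate cells were also present, so the values are read as whole liver. In such bulk tissue, fewer cells of a type and less RNA per cell cannot be told apart.

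Ribosomal proteins join the ribosomal RNAs to form the small subunit, which decodes the mRNA, and the large subunit, which forms the peptide bond. They are needed in about equal numbers and are among the most highly expressed genes of growing and secreting cells such as hepatocytes. Many of their mRNAs begin with a C followed by a run of C and T bases, the terminal oligopyrimidine (TOP) motif, through which the kinase mTORC1 and the RNA-binding protein Larp1 control their translation and stability. Each protein is made from a spliced gene, but the mouse genome also carries many intronless copies of these mRNAs, and a read from the coding sequence can match several of them.

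Runs of C and T bases, as in the TOP motif, were more frequent near the start sites of members than in all promoters, though not at every gene. Of the 7 windows printed here, the first 5 hold a long run. They include that of Rps27, the highest row, and that of Rps18, whose row is under 50 TPM. The Rps18 row holds 4.14% of the TPM of all rows that share its coding sequence. The windows of Rplp0 and Rpl5, whose values are described further on, hold a short run. Each window has 15 bases before and 15 bases from the start site, on the strand of the gene. Start sites are those of RefSeq on mouse build GRCm38.p6. The longest run of C and T is in capitals.
Rps27, chr3:90213634-90213663, minus strand: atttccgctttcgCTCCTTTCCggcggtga
Rps6, chr4:86857353-86857382, minus strand: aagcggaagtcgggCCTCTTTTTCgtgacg
Rpl7a, chr2:26910792-26910821, plus strand: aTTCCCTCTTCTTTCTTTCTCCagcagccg
Rps18, chr17:33955651-33955680, minus strand: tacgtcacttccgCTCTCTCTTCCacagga
Rpl14, chr9:120571502-120571531, plus strand: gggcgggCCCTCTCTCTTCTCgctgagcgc
Rplp0, chr5:115559452-115559481, plus strand: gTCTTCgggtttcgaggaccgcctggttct
Rpl5, chr5:107900513-107900542, plus strand: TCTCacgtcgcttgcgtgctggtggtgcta
Of the 87 members, 64 matched the RefSeq table of promoters. Each of these entered with the first promoter listed for it, while the shares of all promoters count every entry of that table. A run of 8 or more C or T bases stood in this 30-base window in 25 of the 64 (39.1%), against 12% of all 32851 promoters of the table. Runs were counted wherever they lay in the window, and the short ones of Rplp0 and Rpl5 lie wholly before the start site. The counts of runs are therefore not counts of TOP motifs. A run of 6 or more stood in 54.7% of members and 29.2% of all promoters, and a C at the start site itself in 35.9% and 16.3%. Over the 300 bases from 250 before to 50 after the start, and on both strands, the core of the sites bound by ETS factors, CCGGAAG, was found in 37.5% of members and 8.86% of all promoters. The core of the YY1 site, AAGATGGC, was found in 7.81% and 2.75%, and TATAAA in 9.38% and 13.6%. These are matches of letters, not measured binding.

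TPM divides reads by transcript length, so levels can be set side by side between genes, but it keeps no depth, and the depth of these libraries is unknown. The median member stood at 245.6 TPM over the 12 libraries. Rps27, a zinc finger protein of the small subunit, was the highest at 1511 TPM. It was followed by Rps15, of the small subunit head, at 851 TPM, then by Rpl23a, at the exit of the peptide tunnel, at 819 TPM, and by Rps29 at 802 TPM, and Rpl36 was also among the highest at 644 TPM. This is the order of single rows. With the rows that share their coding sequence summed, Rps29, Rpl35a and Rps28 reached 1313, 1157 and 1038 TPM, above Rps15 at 851 TPM. Levels were spread broadly, with 13 members of at least 500 TPM, 57 from 100 to 500 TPM, 7 from 50 to 100 TPM and 10 under 50 TPM. The 10 highest members held 30.6% of the TPM of all 87. The lowest rows were Rpl12, Rps2, Rps4l, Rpl5, Rps19bp1 and Rpl7l1, from 5.85 to 19.1 TPM, and Rpl12, Rps2 and Rpl5 encode proteins that every ribosome carries. Their low rows are taken up with the copies that share their sequence.

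Together the 87 members held 1.90 to 3.18% of the TPM of selenium libraries, with a median of 2.43%, and 2.21 to 3.07% of the TPM of control libraries, with a median of 2.60%. The groups overlapped over almost their whole range, and the means were 2.50 ± 0.447% with selenium and 2.59 ± 0.336% in controls (SD, n = 6 each). Selenium 1 was the lowest library, at 1.90%, and selenium 4 and control 5 were the highest, at 3.18 and 3.07%. This order was shared by most members, since selenium 1 was the lowest library for 58 of the 87 genes, and selenium 4 or control 5 was the highest for 30 and 35 of them.

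The share is taken of a total in which other abundant transcripts also differed between libraries. The major urinary protein genes, whose products liver secretes in bulk, held 33.0 ± 5.07% of the TPM in selenium libraries and 24.1 ± 6.82% in control libraries, with 39.8% in selenium 1 and 13.0% in control 5. The order was not the same throughout, since selenium 4, with the highest ribosomal protein share, had 30.7%, and selenium 2 and control 2 both had 26.2% with ribosomal protein shares of 2.80 and 2.21%. Genes encoded by the mitochondrial genome held 11.6 ± 1.97% with selenium and 17.3 ± 3.43% in controls, and taking these alone out of the total gave a coefficient of variation of the members' share of 16.3% over the 12 libraries, compared with 14.9% for the share of all TPM. With both sets taken out of the total, a choice made after seeing the data, the members held 4.48 ± 0.438% with selenium and 4.41 ± 0.248% in controls, and the coefficient of variation was 7.69%. Selenium 1 was still the lowest library on this scale, at 3.98%, and selenium 4 the highest, at 5.19%. The part that these abundant transcripts take in the values of single members was not tested beyond the rescaled fits.

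**Figure D1:**
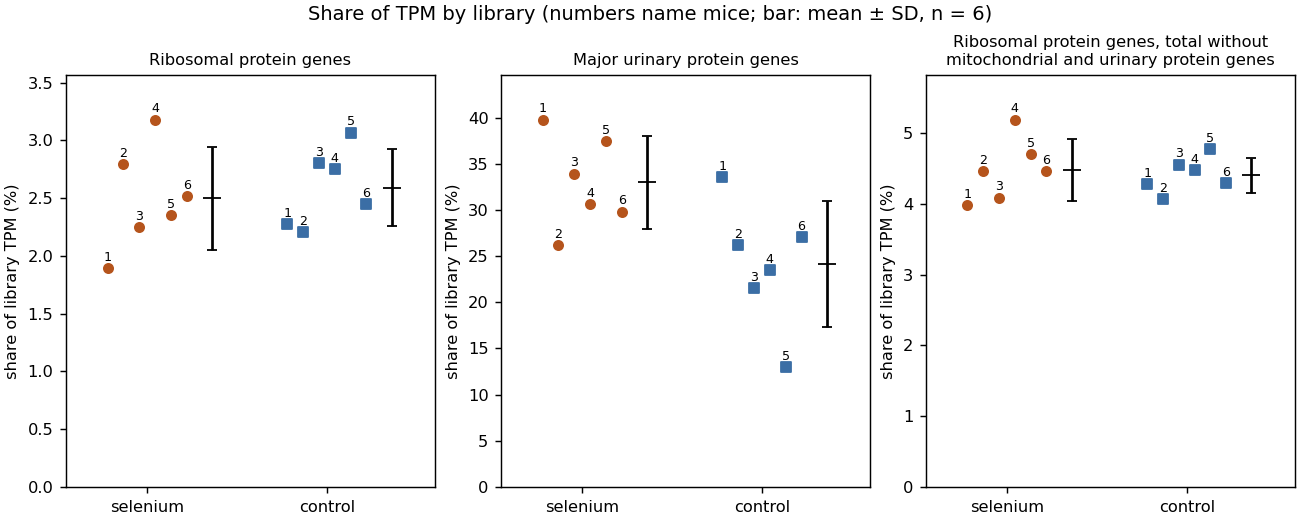
Share of library TPM (%) held by the 87 ribosomal protein genes, by the major urinary protein genes, and by the 87 genes after mitochondrial-encoded and major urinary protein genes were taken out of the total, for each selenium mouse and each control mouse; points are libraries, numbers name mice, and bars give the mean ± SD (n = 6). Selenium 1, with the lowest ribosomal protein share of 1.90%, has the highest urinary protein share of 39.8%, and control 5, at 3.07%, has the lowest, 13.0%.

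Small and large subunit genes kept a nearly fixed proportion. The summed TPM of the small subunit members divided by that of the large subunit members ran from 0.844 to 0.874 in selenium libraries, with a median of 0.863, and from 0.815 to 0.864 in control libraries, with a median of 0.841. The mean ratio was 0.861 ± 0.0110 with selenium and 0.841 ± 0.0186 in controls (SD, n = 6 each), and the groups overlapped. Over all 12 libraries the ratio varied by 2.12%, far less than the summed TPM itself.

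Across the 12 libraries the members varied together to differing degrees. Over 3741 pairs of members the median Pearson correlation of log2(TPM + 1) was 0.607, with 88.7% of pairs positive, and after subtraction of the group means it was 0.637. All members share the total of their library, and after rescaling without mitochondrial-encoded and major urinary protein genes the median was 0.291. Rpl37, Rpl7a, Rpl13a and Rpl32 were among those that followed the mean of the other members most closely, with r from 0.955 to 0.985. Rps7 ran against it, with r = -0.36, and Rps3, Rpl9, Rps2 and Rpl7l1 followed it least among the rest, with r from 0.09 to 0.14. Of the TPM of all rows that share at least 50% of a coding sequence, the Rps7 row held 19.5% and the Rps2 row 0.691%. The Rpl9 row held 99.0%, and the Rps3 and Rpl7l1 rows held all of it. What the division of reads between such rows does to these r was not tested.

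The comparison of selenium with control asks whether the fungus changed the expression of these genes in liver. Expression of the ribosomal protein genes as a whole was close in the groups. The median log2 change of the 87 members, selenium minus control, was -0.08, against -0.03 for all 9980 genes tested, and 61 of the 87 lay within 0.25 of 0, as did 67.5% of all genes. By limma on log2(TPM + 1), two-sided with Benjamini-Hochberg adjustment over all 9980 genes, 0 members were higher and 0 were lower at an adjusted p under 0.05, where 0.331% of all genes tested were called (0.02% higher and 0.311% lower). The smallest adjusted p of a member was 0.106. At an unadjusted p under 0.05, 5 members were higher and 6 lower, or 11 of 87, where 18.5% of all genes had such a p (7.01% higher and 11.4% lower). An exact permutation test per gene over all 924 labellings called 0 genes of any kind after adjustment (smallest adjusted p 0.133), so its 0 calls among members say nothing about them, and 9 members had an unadjusted p under 0.05, as did 17.5% of all genes.

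In 0 of the 87 members did all selenium libraries lie on 1 side of all control libraries, which held for 1.63% of all genes tested. The 37 small subunit members had a median log2 change of -0.04 and the 50 large subunit members one of -0.09. Positive changes were seen in 29 of 87 members, against 45.4% of all genes. Other scalings shifted members and all genes alike. After median-of-ratios scaling 44 of 87 members and 56.2% of all genes were positive, and 9 members were higher and 1 lower at an unadjusted p under 0.05, where 15.4% of all genes were higher and 7.69% lower. After rescaling without mitochondrial-encoded genes 16 members and 32% of all genes were positive, with 5 members higher and 13 lower, where 3.55% of all genes were higher and 17.7% lower. Rescaling without those and the major urinary protein genes gave 44 positive members and 53.7% of all genes, with 13 members higher and 5 lower, where 11.1% of all genes were higher and 7.87% lower. The median of the members less that of all genes was -0.05 as reported, and -0.03, -0.06 and -0.02 in these scalings. With 1 library left out it ran from -0.09 (without selenium 4) to 0.01 (without selenium 3). A loess correction for transcript GC content gave -0.09, and one for transcript length gave 0.03. The median longest transcript was 1049 bases for members and 3026.5 bases for all genes tested. Without selenium 1, 44 members and 49.4% of all genes were positive, and without selenium 4, 18 members and 42.6%. Among the 8 libraries with under 10 TPM of the clock gene Dbp, which was high in selenium 1 and 5 and control 5 and 6, 57 members and 59.3% of all genes were positive, and the median was 0.06, as it was for all genes. A 95% interval lying wholly within a 1.5-fold difference either way was had by 54 members. Each library is 1 mouse, so the p-values measure the spread between these mice.

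**Figure D2:**
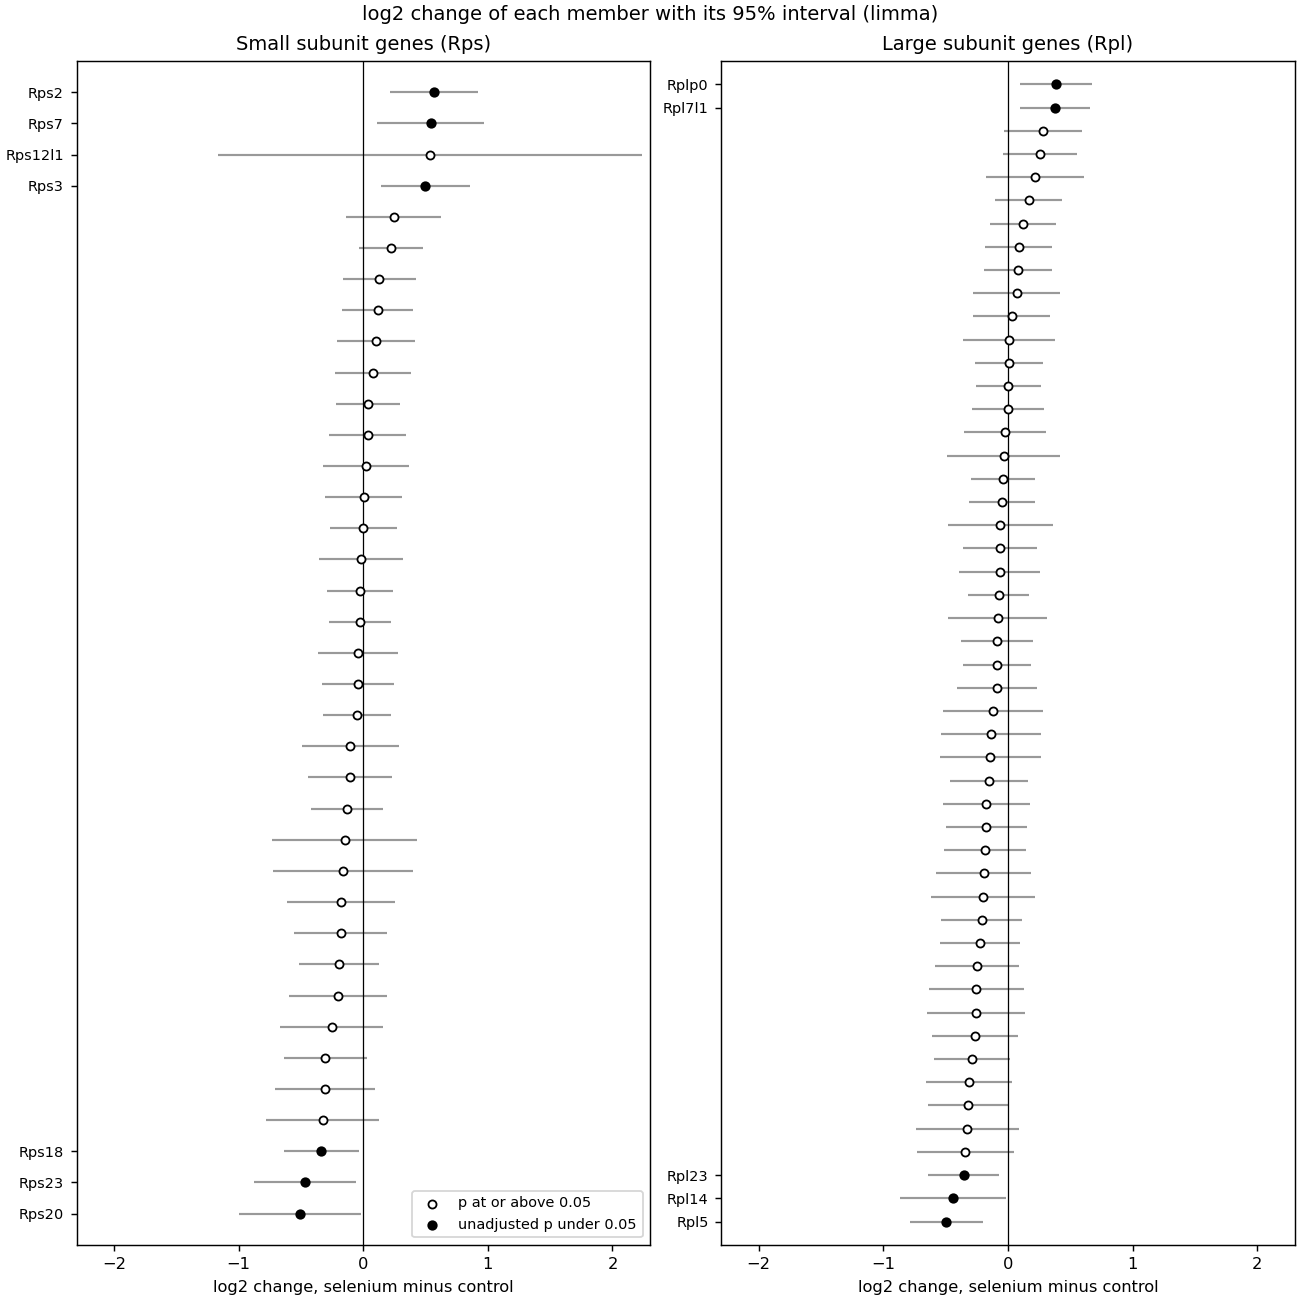
Log2 change (selenium minus control, on log2(TPM + 1)) of each of the 37 small subunit and 50 large subunit genes, with points for the limma estimate and lines for its 95% interval; filled points have an unadjusted p under 0.05, and these and Rps12l1 carry their names. The estimates run from -0.51 (Rps20) to 0.57 (Rps2), most intervals span 0, and the widest belongs to Rps12l1.

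Among small subunit genes with positive changes, Rps2 and Rps3 encode neighbouring proteins at the channel through which mRNA enters. Rps2 had 5.14 to 9.34 TPM in selenium libraries (median 7.33) and 2.76 to 5.78 TPM in control libraries (median 4.87). Rps3 had 112 to 198 TPM with selenium (median 182) and 89.2 to 143 TPM in controls (median 119). For both genes the selenium libraries were mostly the higher ones, but the groups overlapped. The log2 changes were 0.57 ± 0.17 for Rps2 and 0.50 ± 0.17 for Rps3 (estimate ± SE), with limma adjusted p of 0.117 and 0.149. The Rps2 row held 0.691% of the TPM of all rows that share its coding sequence, and with those rows summed its change was 0.19. Rps7, a protein of the small subunit that also binds the p53 regulator Mdm2, had 68.7 to 137 TPM with selenium (median 108) and 44.7 to 96.7 TPM in controls (median 68.1). Its log2 change of 0.54 ± 0.20 had a limma adjusted p of 0.185, and this row did not hold its direction once its near-identical copy was counted with it.

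Rps20, Rps23 and Rps18 had the lowest log2 changes of the small subunit. Rps20, of the head, had 64.8 to 153 TPM with selenium (median 111) and 102 to 252 TPM in controls (median 144), the highest value being that of control 5. Rps23, which lines the decoding centre, had 58.7 to 100.5 TPM with selenium (median 77.0) and 82.0 to 172 TPM in controls (median 99.8). Rps18, also of the head, had 21.3 to 28.5 TPM with selenium (median 25.2) and 26.6 to 45.6 TPM in controls (median 29.5). In Rps20, Rps23 and Rps18 alike, control 5 stood highest. Their log2 changes were -0.51, -0.47 and -0.34, with limma adjusted p of 0.253, 0.212 and 0.220, and without control 5 they were -0.36, -0.33 and -0.23. The rows of Rps20, Rps23 and Rps18 held 69.1%, 15.6% and 4.14% of the TPM of all rows that share their coding sequence. With those rows summed the changes were -0.34, -0.26 and -0.23.

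Rps6, the substrate of the S6 kinases and a common readout of mTORC1 activity as a protein, had 189 to 318 TPM with selenium (median 255) and 219 to 303 TPM in controls (median 253). Rpsa, also known as the laminin receptor precursor, had 168 to 339 TPM with selenium (median 233) and 214 to 283 TPM in controls (median 239). Neither row separated the groups. Their log2 changes were -0.04 (95% interval -0.33 to 0.24) and -0.02 (-0.36 to 0.32). Rps27a, made as a fusion with ubiquitin, had a change of -0.05 (-0.32 to 0.22), and Rps27, the highest member, one of 0.02 (-0.32 to 0.37).

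In the large subunit, Rpl5 and Rpl11 bind the 5S rRNA, and free in the nucleus they hold back Mdm2. Rpl5 had 4.40 to 7.83 TPM with selenium (median 6.99) and 7.52 to 11.3 TPM in controls (median 9.99). The only control library inside the selenium range was control 2. Its log2 change of -0.49 ± 0.14 had the smallest adjusted p of all members in limma (0.106), and passed when the TPM were rescaled without mitochondrial-encoded genes (adjusted p = 0.0488), where 1.83% of all genes were called lower. The row held 3.96% of the TPM of all rows that share its coding sequence, and with those rows summed the change was 0.07, of the opposite sign (adjusted p = 0.831). Rpl11 had 252 to 487 TPM with selenium (median 352) and 339.5 to 552 TPM in controls (median 408), and its change of -0.25 had a 95% interval of -0.63 to 0.12. Over the list of genes of the 5S particle and its p53 pathway, 8 of 13 were tested, 7 were negative, the median log2 change was -0.33 and 0 were called, with 1 lower at an unadjusted p under 0.05. Of all genes tested, 0.331% were called, 11.4% were lower at such a p and 45.4% were positive. Mdm2 itself averaged 5.41 ± 1.69 TPM with selenium and 8.39 ± 2.72 TPM in controls (limma adjusted p = 0.177), and Trp53 8.22 ± 2.84 and 10.8 ± 2.48 TPM (adjusted p = 0.309).

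Rplp0, Rplp1 and Rplp2 form the stalk that recruits elongation factors. Rplp0, the base of the stalk and a frequent reference gene in qPCR, had 122 to 185 TPM with selenium (median 153) and 99.0 to 135 TPM in controls (median 114). Selenium 2, 3, 4 and 6 lay above all controls, and selenium 1 and 5 lay among them. The log2 change of Rplp0 was 0.38 ± 0.13 with a limma adjusted p of 0.162. Those of Rplp1 and Rplp2 were 0.12 (95% interval -0.14 to 0.39) and 0.07 (-0.28 to 0.42). Rpl23, of the face that meets the small subunit, had 191 to 254 TPM with selenium (median 219.8) and 239.8 to 367 TPM in controls (median 267), with a log2 change of -0.36 and a limma adjusted p of 0.185. Rpl14 had 119.7 to 220.0 TPM with selenium (median 189.7) and 177 to 377 TPM in controls (median 233), and its change of -0.44 had a limma adjusted p of 0.253. The Rpl14 row held 84.8% of the TPM of all rows that share its coding sequence, and with those rows summed the change was -0.34. Control 5 was the highest library for both Rpl23 and Rpl14. Rpl3, which lies close to the peptidyl transferase centre, had a change of 0.16 (-0.10 to 0.43). The Rpl3 row held 18.4% of the TPM of such rows, and with them summed the change was 0.25 (-0.06 to 0.55).

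**Figure D3:**
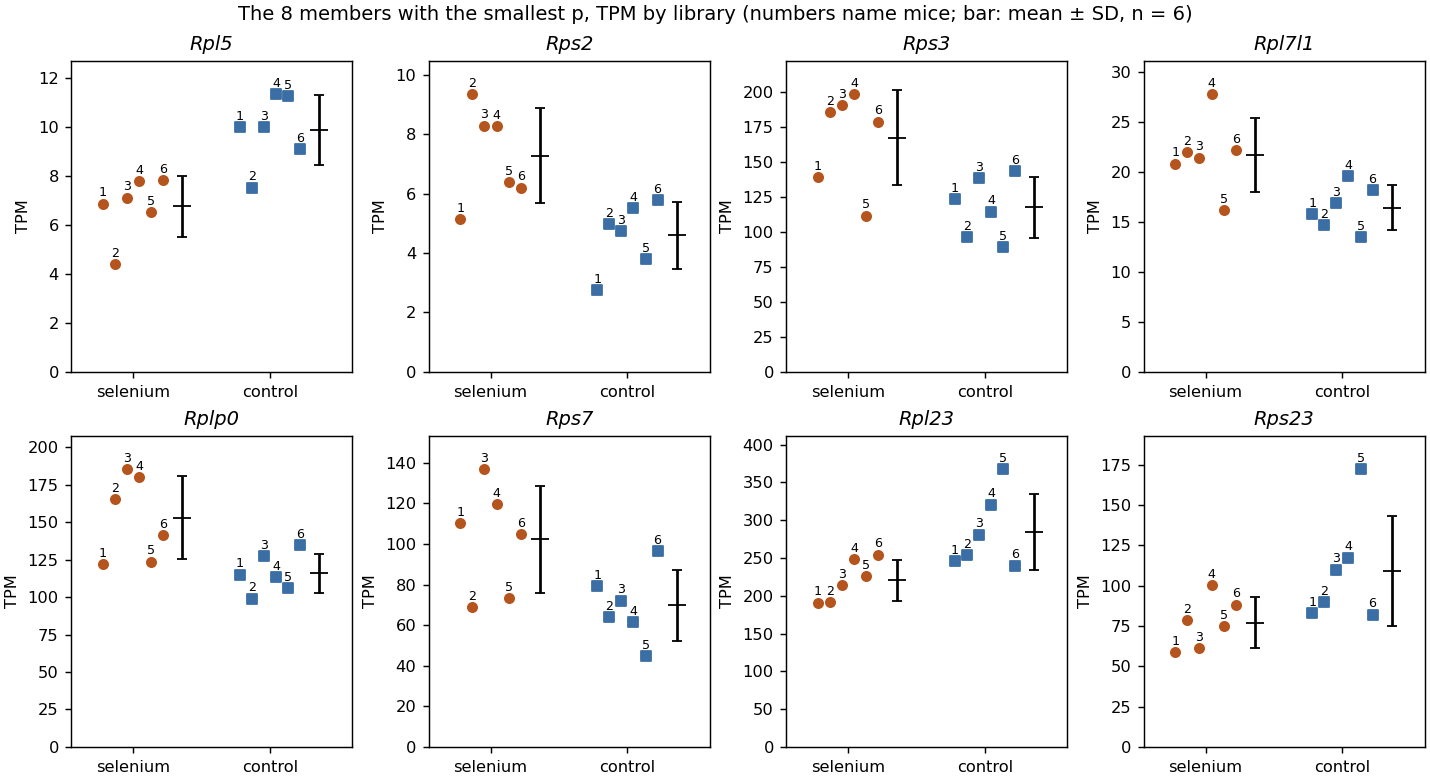
TPM of the 8 members with the smallest p, for each selenium mouse and each control mouse; points are libraries, numbers name mice, and bars give the mean ± SD (n = 6). Rps2, Rps3, Rpl7l1, Rplp0 and Rps7 average higher with selenium and Rpl5, Rpl23 and Rps23 higher in controls, and in each of the 8 panels the groups overlap.

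Several members are paralogs of another member. Rps27l differs by 58 edits from the 252 coding bases of Rps27 (77% identity), while Rps27rt is identical to Rps27 over those bases. The same 60 coding bases of Rps27 and Rps27l, positions 40 to 99 from the start codon of Rps27, are shown with the differing bases in capitals (GENCODE M21 on GRCm38).
Rps27, gene on chr3:90212522-90213651, minus strand: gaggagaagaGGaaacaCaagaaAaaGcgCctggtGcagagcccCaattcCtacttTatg
Rps27l, gene on chr9:66946086-66949516, plus strand: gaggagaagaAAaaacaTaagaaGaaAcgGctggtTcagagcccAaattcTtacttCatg
Rps27l, a p53 target in mouse and human, was itself among the abundant members, with 338 to 700.2 TPM in selenium libraries (median 487) and 434 to 739.6 TPM in control libraries (median 569). Its log2 change was -0.25 with a 95% interval of -0.67 to 0.16, beside 0.02 for Rps27. Rps27rt had 14.6 to 26.4 TPM with selenium and 12.7 to 51.4 TPM in controls.

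Of the other paralogs, Rpl22l1 and its parent Rpl22 averaged 119.7 ± 23.1 and 274 ± 58.8 TPM with selenium, and 149 ± 25.8 and 309 ± 53.3 TPM in controls. Their log2 changes were -0.32 (limma adjusted p = 0.281) and -0.18 (adjusted p = 0.561). Rpl36al had a change of -0.05 and Rpl36a one of -0.31, with adjusted p of 0.868 and 0.322. The Rpl36a row held 27.7% of the TPM of all rows that share its coding sequence, and with those rows summed the change was -0.25. Rps4x, on the X chromosome, had a log2 change of 0.22 (-0.03 to 0.48), and the much lower Rps4l one of -0.16 (-0.72 to 0.40). Rpl7l1 had 16.2 to 27.8 TPM with selenium (median 21.7) and 13.5 to 19.6 TPM in controls (median 16.3). Its log2 change of 0.38 ± 0.13 had a limma adjusted p of 0.160 and passed with array weights (adjusted p = 0.0476), where 1.14% of all genes were called higher, while that of Rpl7 was -0.08. Rps3a1 and Rps3a2 had changes of 0.00 and -0.13, Rpl37 and Rpl37rt of -0.06 and -0.07, and Rps12 one of -0.18. Rps12l1 was listed at 0 in control 2 and at 20.5 to 70.5 TPM in the other controls, against 19.9 to 46.1 TPM with selenium, and its log2 change of 0.53 was -0.36 without control 2. Rps19bp1 averaged 10.3 ± 3.24 TPM with selenium and 12.7 ± 2.38 TPM in controls.

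Most member rows share coding sequence with other rows of the table, so a row's TPM depends on how the authors' counting divided the reads. A look-alike row was defined, after seeing the data, as another row whose transcript holds at least 50% of the 50-base words of a member's coding sequence, in GENCODE M21 transcripts on GRCm38. Of 83 families formed around the members, 65 held more than 1 row, with 178 rows outside the members in all. Look-alike rows held a mean of 10285 TPM in selenium libraries and 11510 TPM in control libraries, or 29.3% and 30.7% of the TPM of members and look-alikes together. In 20 families the look-alike rows held more than 50% of the TPM.

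The low rows of core ribosomal proteins were the clearest cases. Rps2 held 0.691% of its family's TPM, and the row Rps2-ps10 alone had a mean of 841 TPM. Rpl12 held 1.59%, with 361 TPM in Gm10275. Rpl5 held 3.96%, with 201 TPM in Gm15500. Rps18 held 4.14%, with 535 TPM in Rps18-ps6, and Rps7 19.5%, with 356 TPM in Rps7-ps3. With look-alike rows summed, 80 of 83 families stood at 100 TPM or more and the median family at 391 TPM, and the Rps2 family reached 859 TPM. The rows left low were Rps19bp1 and Rpl7l1, which have no look-alike row, and Rps4l, which has no coding sequence in GENCODE M21 and could not be searched.

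**Figure D4:**
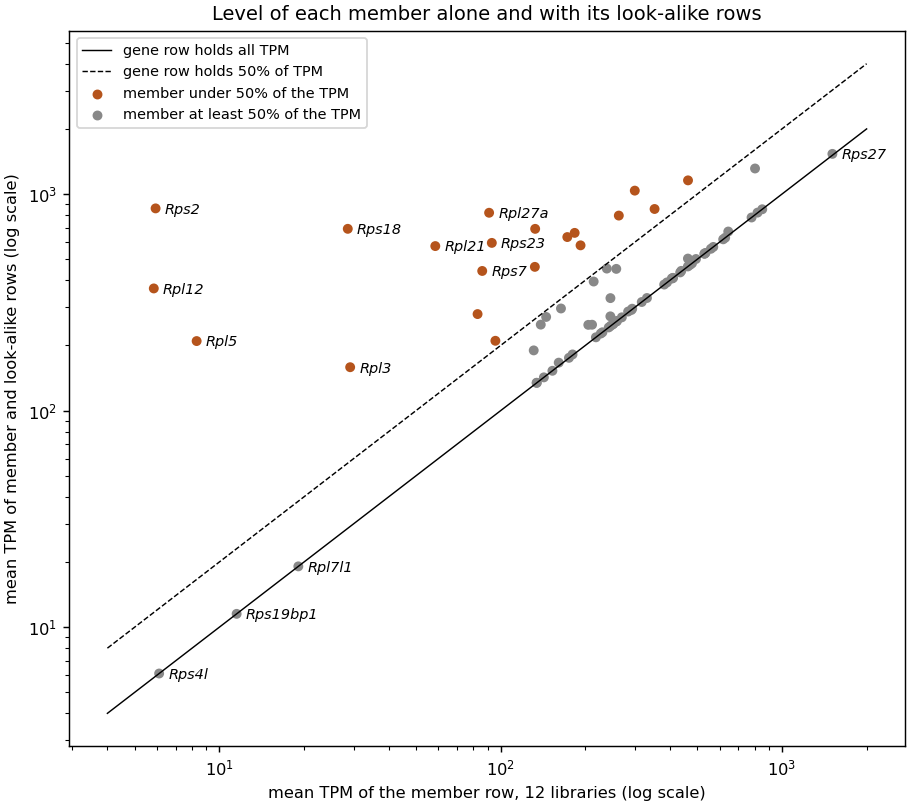
Mean TPM over 12 libraries of each member row (horizontal, log scale) against the mean TPM of the member and its look-alike rows summed (vertical, log scale), 1 point per family; coloured points are the 20 families in which the member holds under 50% of the TPM. Rps2, Rpl12, Rpl5 and Rps18 lie far above the solid line of equal values and the dashed line at which the member holds 50%, while Rps4l, Rps19bp1 and Rpl7l1 lie on it.

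The sequences of such pairs are the same or nearly so. Each line gives 60 bases of coding sequence, counted from the start codon, of a member and of the aligned stretch of a look-alike, with differing bases in capitals and the position of the gene in GENCODE M21 on GRCm38. Over the whole coding sequence Rpl5 and Gm15500 differ at 0 of 891 bases, Rpl12 and Gm10275 at 0 of 495, Rpl3 and Rpl3-ps1 by 2 edits over 1209 bases, Rps7 and Rps7-ps3 by 3 over 582, and Rps13 and Rps13-ps1 by 2 over 453.
Rpl5, positions 1 to 60, gene on chr5:107900502-107909005, plus strand: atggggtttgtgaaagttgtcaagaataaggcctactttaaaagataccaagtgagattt
Gm15500, gene on chr7:114705217-114706235, minus strand: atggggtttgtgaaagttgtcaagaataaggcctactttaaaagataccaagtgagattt
Rps7, positions 1 to 60, gene on chr12:28630854-28635953, minus strand: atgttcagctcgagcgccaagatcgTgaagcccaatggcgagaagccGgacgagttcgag
Rps7-ps3, gene on chrX:152909505-152910155, minus strand: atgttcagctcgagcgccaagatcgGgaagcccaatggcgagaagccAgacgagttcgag
Rpl3, positions 1 to 60, gene on chr15:80077791-80091868, minus strand: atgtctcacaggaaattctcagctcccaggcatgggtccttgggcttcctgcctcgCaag
Rpl3-ps1, gene on chrX:13202571-13203780, plus strand: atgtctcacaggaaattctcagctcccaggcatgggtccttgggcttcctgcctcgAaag
GENCODE M21 classes Gm15500 and Rps7-ps3 as transcribed processed pseudogenes and Rpl3-ps1 as a processed pseudogene. The symbol Rps7-ps3 is that of the deposited data, and GENCODE M21 gives the same Ensembl gene another symbol.

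Summing look-alike rows into the member before the log, an alternative chosen after seeing the data, called 0 families higher and 0 lower in limma, where 0.333% of all 9918 genes of that table were called. At an unadjusted p under 0.05, 3 of 83 families were higher and 2 lower, where 6.97% of all genes were higher and 11.4% lower, and the smallest adjusted p of a family was 0.148 (Rps3). It changed the values of several of the members named above. The Rpl5 family had 173 to 257 TPM with selenium and 165 to 235 TPM in controls, and a log2 change of 0.07 (95% interval -0.22 to 0.35) in place of -0.49 for the Rpl5 row. The Rps2 family had a log2 change of 0.19 (-0.09 to 0.46), in place of 0.57 for the Rps2 row. The Rps7 family had 325 to 533 TPM with selenium and 391 to 628 TPM in controls, and a change of -0.28 (-0.62 to 0.05), of the opposite sign to the Rps7 row, since Rps7-ps3 averaged 296 ± 76.6 TPM with selenium and 415 ± 108 TPM in controls. In all, 4 families differed in sign from their member, and 3 moved by more than 0.25.

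Rps3, Rplp0 and Rpl7l1 have no row above this limit, so their log2 changes of 0.50, 0.38 and 0.38 stood as they were, with limma adjusted p of 0.148, 0.161 and 0.160 in the summed table. Shorter stretches are still shared, since 8.09% of the 50-base words of Rps3, 21.9% of those of Rpl7l1 and 60.3% of those of Rplp0 stand in at least 1 other gene, and what that does to these rows was not tested. Rpl23, whose look-alike row is low, had a log2 change of -0.35 as a family, with an adjusted p of 0.198. The Rpl21 family of 13 rows averaged 512 ± 72.1 TPM with selenium and 639 ± 123 TPM in controls, and its change of -0.31 had an adjusted p of 0.262.

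**Figure D5:**
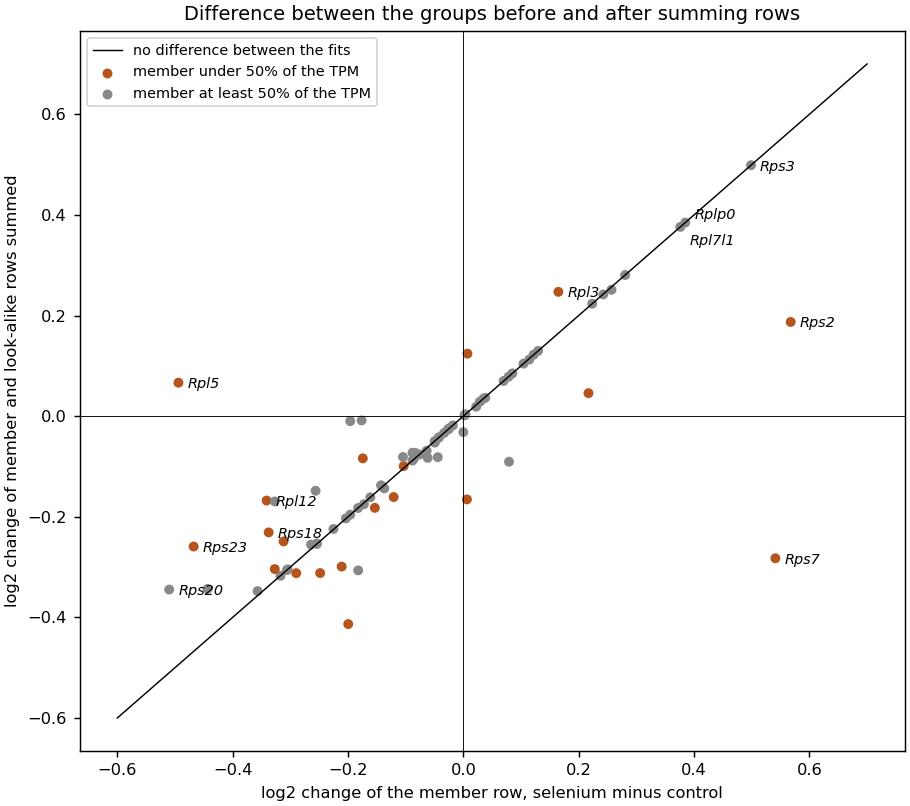
Log2 change of each member row (horizontal) against that of the member and its look-alike rows summed (vertical), both selenium minus control on log2(TPM + 1); the line marks equal values, and coloured points are families in which the member holds under 50% of the TPM. Rps3, Rplp0 and Rpl7l1 lie on the line, Rps2 and Rpl5 lie at 0.19 and 0.07 on the vertical axis, and Rps7 is at 0.54 alone and at -0.28 summed.

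The authors' deposited table, from which the log2 fold change of control over selenium was turned round in sign, differs from the limma fit in its calls. At an adjusted p under 0.05 the authors' deposited table has 6 members higher with selenium and 0 lower, where 9.87% of the genes tested here were called (6.97% higher and 2.9% lower). These members of the authors' deposited table were Rplp0 (log2 change 0.46, adjusted p = 0.00275), Rpl7l1 (0.41, 0.00507), Rps3 (0.37, 0.0106), Rps7 (0.61, 0.0126), Rps2 (0.77, 0.0129) and Rps4x (0.29, 0.0447). The median log2 change of the 87 members in the authors' deposited table was 0.00, and that of Rpl5 was -0.35 (adjusted p = 0.163). The limma fit gave the same direction for these 6 genes and for Rpl5, without a call, on the same libraries.

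Of the ribosomal proteins that the name rule misses, Rack1, a scaffold on the small subunit, averaged 183 ± 43.5 TPM with selenium and 214 ± 38.7 TPM in controls. Fau, a fusion of a ubiquitin-like domain with a small subunit protein, averaged 266 ± 75.1 TPM with selenium and 275 ± 39.3 TPM in controls. Their log2 changes were -0.24 and -0.09, with limma adjusted p of 0.474 and 0.838.

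The other genes of ribosome production and use were taken from 8 lists with the missed ribosomal proteins as 1 of them. In limma 0 genes of any of these lists passed, where 0.331% of all genes tested did. The counts of each list stand beside these shares of all genes: 7.01% higher and 11.4% lower at an unadjusted p under 0.05, and 45.4% positive. The 37 initiation factors had a median log2 change of 0.13, with 26 positive, and 9 higher and 1 lower at an unadjusted p under 0.05. Eif3l, a subunit of the large initiation factor eIF3, averaged 21.6 ± 3.19 TPM with selenium and 15.2 ± 2.80 TPM in controls (limma adjusted p = 0.104). The helicase Eif4a1 averaged 111 ± 7.62 TPM with selenium and 86.3 ± 10.8 TPM in controls (adjusted p = 0.116). Of the 19 elongation factors and other TOP mRNAs 8 were positive, and the median was -0.04, with 1 higher and 4 lower at an unadjusted p under 0.05. Snhg1, a TOP host gene of small nucleolar RNAs, had 9.08 to 12.6 TPM with selenium and 13.2 to 19.6 TPM in controls, with no overlap, but did not pass (limma adjusted p = 0.0514). Eef2, which moves the ribosome along the mRNA, averaged 257 ± 46.7 TPM with selenium and 176 ± 47.0 TPM in controls (adjusted p = 0.148).

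Among 73 tested of 74 ribosome biogenesis genes 37 were positive, the median log2 change was 0.01, and 5 were higher and 7 lower at an unadjusted p under 0.05. Ncl, the nucleolar protein nucleolin, averaged 25.2 ± 4.48 TPM with selenium and 43.4 ± 12.2 TPM in controls, and the groups did not overlap (log2 change -0.74, limma adjusted p = 0.0671). The rRNA methyltransferase Dimt1 had a change of -0.35 (adjusted p = 0.0988). Of 36 tested mTORC1 and TOP regulators, 16 were positive, the median was -0.04, and 4 were higher and 4 lower at an unadjusted p under 0.05. Ddit4, an inhibitor of mTORC1, averaged 2.05 ± 0.876 TPM with selenium and 7.60 ± 5.77 TPM in controls (adjusted p = 0.0671). Mtor, the kinase itself, averaged 5.45 ± 1.26 TPM with selenium and 3.44 ± 0.392 TPM in controls (adjusted p = 0.0831).

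RNA polymerase I and 5S rRNA transcription genes had a median of -0.01 over 14 tested, with Taf1d at -0.58 and Polr1c at 0.45 (limma adjusted p = 0.186 and 0.210). Factors of folding and surveillance at the ribosome had a median of 0.10 over 25 tested, with Gtpbp2, a rescue factor of stalled ribosomes, at -0.45 and the ubiquitin ligase Rnf10 at 0.46 (adjusted p = 0.123 and 0.185).

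Markers of other cell types did not pass the test either, where 0.331% of all genes did and 45.4% of all genes were positive. The 11 markers of Kupffer cells and macrophages were all above 0 on the log2 scale (median 0.37), and their sum ran from 72.9 to 337 TPM in selenium libraries and from 83.6 to 182.5 TPM in control libraries. All 6 tested stellate cell and fibroblast markers were negative, with a median of -0.37. The 10 matched markers of that list summed to 52.2 to 119.6 TPM with selenium and 86.9 to 132 TPM in controls. The 7 matched erythroid markers, 5 of them tested, summed to 378 to 1494 TPM with selenium and 404 to 4271 TPM in controls. The part of any such cell type in the values of the ribosomal protein genes was not tested.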

How the data were processed

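Liver RNA of 12 mice, 6 per group, was sequenced. Per the labels' protocols, TRIzol extraction was followed by an RNeasy clean-up. The submitters' processing notes name build GRCm39, the tools RSEM 1.2.8 and HISAT2 2.1.0, and DESeq2. The authors deposited TPM per gene. TPM scales each library to 1 total, keeps no depth, and depends on how reads shared by copies are divided. The log2 fold changes and the p-values of the series table are the authors' own, as deposited.

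Genes with at least 1 TPM in 6 or more libraries (9980) were tested with limma 3.58.1 in R 4.3.3 on log2(TPM + 1), a pseudocount that understates changes of low genes, with an intensity trend, two-sided, Benjamini-Hochberg adjusted, at a threshold of 0.05, without covariates. The fit was run on simulated data with independent noise per gene and planted changes larger than that of any member. Such a check cannot say how well changes of the size seen in members would be called. All 87 members passed the filter. Members and gene lists were chosen with earlier results of these data known. Coding sequences came from GENCODE M21 on GRCm38, another build than the authors', and were compared with edlib 1.3.9.post1; 4 members had none. Promoter windows came from RefSeq on GRCm38.p6. Named members were the 6 highest and 6 lowest, the 10 with the smallest p, the 5 largest changes each way, paralogs with their parents, and a set with known roles. Of each other list the 2 genes with the smallest p were named. Some genes that these rules take are not reported here. Look-alike rows, Rpl9, Rpl7a, Rpl13a, Rpl32, Rpl21, Rps13, Rpl15, Rpl35a and Rps28 were named after their values were seen. Alternatives are given with the closing observations.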

Additional observations from a re-analysis of the deposited data

Results flagged for a closer look

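Among 86 groups of 6 values, from the 42 named members and the summed TPM of all 87, 3 held a library far from the others by Dixon's criterion for 6 samples (0.625), which chance gives in about 1 in 20 groups. Rps12 stood at 247 TPM in control 5, against 175 TPM in the next control. Rps27rt stood at 51.4 TPM in control 5, against 26.2 TPM in the next control. Rps4l stood at 12.2 TPM in control 4, against 6.43 TPM in the next control.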

How the results depend on the processing

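Under the 30 other settings, the log2 changes of 42 named members kept their direction and their side of the threshold 1163 times, passed it 2 times and changed direction 91 times, in 22 of the genes, and the cause was not tested. Some settings keep the estimates of the main fit, so no direction could change in them. These are the other filters, limma without the trend, robust empirical Bayes, the permutation test and the replicate block. The summing of look-alike rows and the rescaling without mitochondrial-encoded and major urinary protein genes were chosen after seeing the data. No member was called with any 1 library left out. The 12 fits without 1 library gave 18 to 44 positive members (lowest without selenium 4, highest without selenium 1). They gave 0 to 57 higher and 8 to 113 lower genes among all tested and 0 to 5 calls in the gene lists, these 3 being lowest without control 2 and highest without control 6. They also gave medians of -0.14 to 0.00 over all members, -0.11 to 0.02 over small and -0.16 to -0.03 over large subunit members, and a difference in share of -0.231 to 0.0260 percentage points.

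Among all genes, calls were 2 higher and 31 lower as reported. A pseudocount of 0.1 gave 1 higher and 39 lower, no filter 0 and 1, and a filter of 5 TPM 1 and 23. Median-of-ratios scaling gave 52 higher and 38 lower, and quantile normalization 2 and 10. TPM without mitochondrial-encoded genes gave 6 higher and 189 lower, and without those and the major urinary protein genes 0 and 8. Robust empirical Bayes gave 4 higher and 52 lower, array weights 114 and 141, and the exact permutation test 0 and 0. The 8 libraries with Dbp under 10 TPM gave 30 higher and 13 lower. The GC correction gave 12 higher and 41 lower, and the length correction 11 and 36. The gene lists had 0 calls as reported and 1 call with a pseudocount of 0.1, a filter of 5 TPM, quantile normalization, robust empirical Bayes, the Dbp limit, the GC or the length correction, 3 with median-of-ratios scaling, 5 without mitochondrial-encoded genes and 6 with array weights. Positive members numbered 44 with median-of-ratios scaling, 16 without mitochondrial-encoded genes, 46 with array weights, 57 with the Dbp limit, 49 with the length correction and 44 without mitochondrial-encoded and major urinary protein genes, and the median correlation was 0.291 in the last. Members called were 1 lower, Rpl5, without mitochondrial-encoded genes (-0.59) and 1 higher, Rpl7l1, with array weights (0.45).

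No pairing of the mice by replicate number was seen. Same-numbered libraries correlated at -0.14 to 0.11 in their deviations, and 0 of 6 correlated best with their own number. Such correlations cannot exclude a weak effect shared by mice of the same number. With a replicate block 0 members were called, and 0 genes were higher and 3 lower.

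The log2 changes that took the other sign were these. Median-of-ratios scaling gave Rpl36al 0.032, Rpl37 0.017, Rpl37rt 0.0147, Rpl39 0.019, Rpl7 0.0051, Rps27a 0.032, Rps3a1 0.081, Rps6 0.037 and Rpsa 0.063. TPM rescaled without mitochondrial-encoded genes gave Rplp2 -0.027, Rps15 -0.093 and Rps27 -0.075. Array weights gave Rpl22 0.011, Rpl23a 0.032, Rpl36al 0.017, Rpl37 0.014, Rpl37rt 0.057, Rpl39 0.013, Rpl7 0.028, Rps27a 0.056, Rps27rt 0.12, Rps3a1 0.12 and Rps6 0.050. The 8 libraries with Dbp under 10 TPM gave Rpl23a 0.030, Rpl36 0.075, Rpl36al 0.035, Rpl37 0.093, Rpl37rt 0.11, Rpl39 0.17, Rps12 0.030, Rps27rt 0.38, Rps29 0.0028, Rps3a1 0.057, Rps6 0.088 and Rpsa 0.14. A loess correction for GC content gave Rps27 -0.017 and Rps27a 0.011. A loess correction for transcript length gave Rpl23a 0.070, Rpl36 0.063, Rpl36al 0.0093, Rpl37 0.036, Rpl37rt 0.071, Rpl39 0.089, Rps27a 0.049, Rps27rt 0.059, Rps29 0.080, Rps3a1 0.092 and Rps6 0.029. Look-alike rows summed gave Rpl5 0.067 and Rps7 -0.28. TPM rescaled without mitochondrial-encoded and major urinary protein genes gave Rpl36al 0.033, Rpl37 0.019, Rpl37rt 0.016, Rpl39 0.020, Rpl7 0.0064, Rps27a 0.033, Rps3a1 0.083, Rps6 0.038 and Rpsa 0.064. With 1 library left out the changes ran from -0.094 to 0.0047 for Rpl36al, -0.13 to 0.019 for Rpl37, -0.15 to 0.026 for Rpl37rt, -0.18 to 0.049 for Rpl39, -0.019 to 0.16 for Rplp2, -0.36 to 0.87 for Rps12l1, -0.061 to 0.078 for Rps15, -0.064 to 0.11 for Rps27, -0.30 to 0.089 for Rps27rt, -0.064 to 0.070 for Rps3a1, -0.27 to 0.018 for Rps4l, -0.11 to 0.037 for Rps6 and -0.12 to 0.085 for Rpsa.

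Depth is unknown from TPM, so counting error could not be separated from the spread between mice, and low rows such as Rpl12, Rps2 and Rps4l are the least certain.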

Other observations

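Some look-alike rows differed more between the groups than the member they resemble. Rps13-ps1, whose coding stretch differs from Rps13 by 2 edits, had 43.4 to 63.6 TPM in selenium libraries and 11.7 to 37.3 TPM in control libraries, without overlap, and a log2 change of 1.15 (limma adjusted p = 0.0536), beside -0.18 for Rps13. The differing bases fall at the end of the coding sequence, positions 370 to 429, in capitals.
Rps13, gene on chromosome 7, minus strand: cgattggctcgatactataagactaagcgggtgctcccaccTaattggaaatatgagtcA
Rps13-ps1, gene on chromosome 8, plus strand: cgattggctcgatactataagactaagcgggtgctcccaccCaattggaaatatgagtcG
Rpl15-ps3, identical to Rpl15 over 612 coding bases, averaged 31.3 ± 10.6 TPM with selenium and 11.4 ± 7.40 TPM in controls (log2 change 1.62, limma adjusted p = 0.0928), beside -0.26 for Rpl15. Rpl35a-ps6 was listed at 0 for selenium mice 3 and 6, while the remaining selenium mice had 76.2 to 169 TPM and the control mice 132 to 274 TPM (limma adjusted p = 0.242). Rpl35a has several such copies. In selenium 6, Rpl35a-ps2 and Rpl35a-ps4 were also listed at 0, while Rpl35a-ps3 had 359 TPM and Gm10243 263 TPM. A row's TPM depends on how reads were divided between copies, and the part of this in the differences between groups was not tested. These rows were singled out after their values were seen.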
